A study of Mus musculus with 36 samples.

Results

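Acyl-CoA thioesterases cleave the thioester that joins a fatty acid to coenzyme A, and the Cyp4a enzymes are microsomal cytochromes P450 that hydroxylate the last carbon of a fatty acid chain. The thioesterases are among the enzymes that act on how much fatty acid in a liver cell is held as an activated acyl-CoA. The Cyp4a enzymes act on how much is sent to omega-oxidation and then, as dicarboxylic acid, to the peroxisome. Most genes of both families are textbook targets of PPARA, the nuclear receptor that fatty acids activate during fasting. Cyp4a12a and Cyp4a12b are the exception, being known as androgen-dependent, male-type genes of mouse liver and kidney.

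The 10 genes described here were taken by symbol from the 38283 genes of the deposited count table. They are the thioesterases Acot1 (cytosolic), Acot2 (mitochondrial), and Acot3, Acot4 and Acot8 (peroxisomal), and the omega-hydroxylases Cyp4a10, Cyp4a12a, Cyp4a12b, Cyp4a14 and Cyp4a31. All 10 passed the filter on low counts that left 13945 genes for testing. Liver RNA came from 36 male C57Bl/6J mice at 16 weeks of age, 6 to a group. Wild-type mice and PIK3R1(Y657X) mutant mice, which carry a truncating knock-in allele on 1 chromosome and a normal allele on the other, were taken fed ad libitum on chow, after a 16 h fast, or after a 16 h fast and 6 h of refeeding with chow. The allele is present in every tissue, so these livers hold the effect of the whole animal as well as that of the hepatocyte. Counts sum both alleles of Pik3r1 and give no check of the genotype.

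Total counts per mouse ranged from 8839481 to 19542778. Levels are given as normalised CPM (TMM scaling of the library sizes), and as CPM per kilobase of exon wherever genes are set against each other. Only the sums of cell type markers that follow are CPM of total counts, without TMM scaling. The hepatocyte marker list (7 of 7 genes found) summed to between 53191 and 90516 CPM in every mouse. Kidney proximal tubule markers, listed because kidney also transcribes Cyp4a genes, summed to at most 0.339 CPM, with Kap at 0. Endothelial markers (6 of 6 found) summed to 251 to 320 CPM in fed and 337 to 357 CPM in fasted wild-type mice, without overlap, and to 310 to 391 and 332 to 393 CPM in mutant mice. Kupffer cell markers (5 of 6 found) summed to 165 to 213 CPM in fed and 193 to 358 CPM in fasted wild-type mice, and to 160 to 588 CPM in fed mutant mice. Stellate cell markers (6 of 6 found) did not overlap between fed genotypes on this scale, at 258 to 363 CPM in wild-type and 369 to 536 CPM in mutant mice. Fed wild-type and fed mutant mice also came largely from different runs of mouse numbers. The part of these cell types in the results below was not tested. In such bulk RNA fewer cells of a type and less RNA per cell cannot be told apart. Mice are named here by their labels, which give the feeding state (ALC fed, ONF fasted, RF6 refed), the genotype (WT, MT) and a mouse number.

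The families sit in tandem arrays, which matters for how their reads can be told apart. In the GENCODE M21 annotation of GRCm38, Acot2 (chr12:83987861-83993873), Acot1 (chr12:84009490-84018371), Acot4 (chr12:84038379-84048601) and Acot3 (chr12:84052144-84060402) lie on the plus strand of chromosome 12, and Acot8 lies apart on chromosome 2 (chr2:164792765-164804882, minus strand). On chromosome 4 lie, in order, Cyp4a12a (chr4:115299046-115332815), Cyp4a12b (chr4:115411624-115439034), Cyp4a14 (chr4:115486200-115496142, minus strand), Cyp4a10 (chr4:115518264-115533649) and Cyp4a31 (chr4:115563649-115579015), all but Cyp4a14 on the plus strand. The coding sequences of Cyp4a12a and Cyp4a12b differed at 23 of 1524 aligned bases (98.5% identity). Those of Cyp4a10 and Cyp4a31 were 96.6% identical and those of Acot1 and Acot2 95.6%, whereas Acot1 and Acot4 shared 74.8%.

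The reads were 50 bases long. Of the 50-base windows in the transcripts of Cyp4a12a, 48.9% also occurred in Cyp4a12b, and a read from there fits both genes equally. The share of windows found in any other gene was 27.7% for Acot2 (mostly Acot1), 19.2% for Acot1, 19.1% for Acot3, 4.53% for Acot4, 29.8% for Cyp4a10 (mostly Cyp4a32), 20.6% for Cyp4a31, 0.235% for Cyp4a14 and 0 for Acot8. How the authors' counting divided such reads is not stated in the sources used here, so Acot8 and Cyp4a14 are the members whose counts depend least on it. The deposited table also gives Acot3 and Acot4 one shared locus. Its locus for Acot8 (chr2:164785823-164804882) reaches beyond the annotated gene, and whether this added counts was not tested. The coding windows with the most differences within each close pair are shown to make plain what a read had to tell apart, with the bases that differ in capitals.
Acot1, exon 3 of 3, chr12:84016939-84016988, plus strand: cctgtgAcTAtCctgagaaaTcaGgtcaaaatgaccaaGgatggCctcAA
Acot2, exon 3 of 3, chr12:83992661-83992710, plus strand: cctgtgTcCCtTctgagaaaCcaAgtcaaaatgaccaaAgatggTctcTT
Cyp4a10, exon 4 of 13, chr4:115521068-115521117, plus strand: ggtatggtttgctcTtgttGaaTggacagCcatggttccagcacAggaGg
Cyp4a31, exon 4 of 12, chr4:115566480-115566529, plus strand: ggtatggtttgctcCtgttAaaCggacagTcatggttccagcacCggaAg
Cyp4a12a, exon 6 of 12, chr4:115326632-115326681, plus strand: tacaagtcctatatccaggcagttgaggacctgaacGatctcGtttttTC
Cyp4a12b, exon 6 of 12, chr4:115432885-115432934, plus strand: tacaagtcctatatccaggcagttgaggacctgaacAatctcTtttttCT
Even in these windows the pairs differed at no more than 10, 6 and 4 of 50 bases, respectively.

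In fed wild-type liver the male-type gene Cyp4a12a had the highest level of the 10, at 36.1 ± 9.33 CPM per kb (SD, n = 6), ahead of Cyp4a10 at 21.8 ± 16.2 and Cyp4a14 at 18 ± 19.4. These neighbours in the order overlapped between mice. Cyp4a12b followed at 9.63 ± 2.80 CPM per kb and Acot8 at 6.65 ± 1.15. The other thioesterases and Cyp4a31 were all under 2 CPM per kb, from Acot1 at 1.42 ± 0.825 to Cyp4a31 at 0.270 ± 0.142. After the fast the order was another one. Cyp4a14 stood at 1718 ± 174 CPM per kb and Cyp4a10 at 1005 ± 144, Acot3 came next at 35.1 ± 9.54, overlapping with Acot1 at 31.6 ± 5.92, and Cyp4a12a stood at 24.5 ± 5.82. Together the 5 Cyp4a genes took 0.0204% of normalised counts in fed and 0.668% in fasted wild-type mice, and the 5 thioesterases 0.00282% and 0.0342%.

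**Figure D1:**
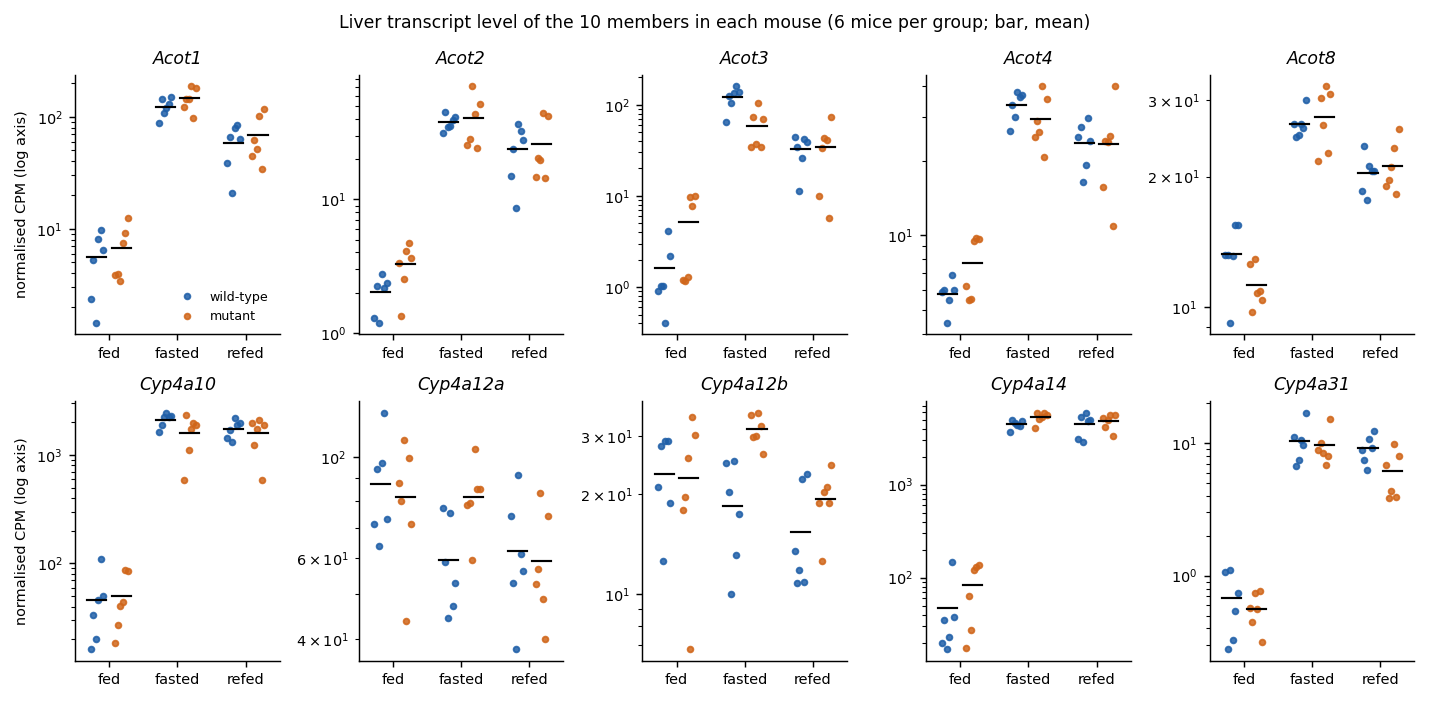
Normalised CPM (log axis, its range set for each gene) of the 10 genes in each of 36 mice, by feeding state and genotype, with 6 mice per group and bars at the means. In the 8 genes other than Cyp4a12a and Cyp4a12b every fasted mouse lies above every fed mouse of its genotype, while Cyp4a12a and Cyp4a12b overlap between fed and fasted mice.

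Fasting raised the 5 thioesterases, Cyp4a10, Cyp4a14 and Cyp4a31 in both genotypes. In each genotype 8 of the 10 members were higher in fasted mice at an adjusted p under 0.05 (quasi-likelihood F test in edgeR, adjusted by Benjamini and Hochberg over all genes tested), against 14.5% of all genes in wild-type and 15.2% in mutant mice. For these 8 members the groups also did not overlap, every fasted mouse lying above every fed mouse. Groups did not overlap for 17.6% of all genes in wild-type mice and 11.5% in mutant mice counting both directions. The median log2 fold change over the 10 members was 4.08 in wild-type and 3.54 in mutant mice, beside 0.01 and -0.01 over all genes. Fed and fasted mice also came from different runs of mouse numbers, so feeding state and number cannot be told apart in this comparison. Fed tissue was taken before an overnight fast, and the other tissue after it or after refeeding. Time of day may thus differ between feeding states, and its part in any of these changes was not tested.

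Among the hydroxylases Cyp4a14 had the largest change. Its lowest, median and highest values were 17.1, 29 and 148 CPM in fed wild-type mice and 3720, 4489 and 4989 CPM in fasted ones. In mutant mice they were 17.5, 93.1 and 137 CPM when fed and 4107, 5465 and 5943 CPM when fasted. The fed mice varied widely, with a coefficient of variation of 108% in wild-type mice, and the fasted mice little, at 10.1%. The log2 fold change was 6.58 (SE 0.53, adjusted p = 3.6e-11) in wild-type and 6.01 (SE 0.52, adjusted p = 1.6e-10) in mutant mice. Without the single high fed mouse ALC_WT_856 the wild-type value became 7.40. With the 5 fed mice numbered from ALC_WT_856 to ALC_WT_860 as the only fed mice, it was 5.59 in wild-type and 7.20 in mutant mice, so the order of the genotypes turned.

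Cyp4a10 had values of 16.3, 39.8 and 110 CPM (lowest, median, highest) in fed and 1618, 2224 and 2456 CPM in fasted wild-type mice, a log2 fold change of 5.52 (SE 0.47, adjusted p = 8.9e-11). In mutant mice it went from 18.5, 42.5 and 87.1 CPM to 583, 1804 and 2343 CPM, a log2 fold change of 4.99 (SE 0.45, adjusted p = 4.9e-10). The 583 CPM of mouse ONF_MT_806 is the lowest of the 12 fasted values, yet lies far above every fed mouse. Cyp4a31 was scarce, with 3 to 14 counts per fed wild-type mouse, and its log2 fold change was 3.91 (SE 0.31) in wild-type and 4.05 (SE 0.31) in mutant mice. The share of Cyp4a10 in the sum of both genes was 99.5% ± 0.173 in fasted and 97.5% ± 2.52 in fed wild-type mice, so a small part of Cyp4a10 reads counted to Cyp4a31 would be a large part of the latter. Summed with Cyp4a10 and Cyp4a32, the rise was 5.39 (SE 0.44) on the log2 scale in wild-type mice.

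The thioesterases spanned a wide range of responses. Acot3, a peroxisomal enzyme, had values of 0.408, 1.03 and 4.09 CPM (lowest, median, highest) in fed and 64.3, 129 and 159 CPM in fasted wild-type mice, a log2 fold change of 6.23 (SE 0.66, adjusted p = 1.0e-08). The fed values rest on 5 to 45 counts per mouse. Acot1, the cytosolic enzyme, was at 1.45, 5.85 and 9.72 CPM in fed and 88.3, 126 and 149 CPM in fasted wild-type mice, a log2 fold change of 4.48 (SE 0.41) and of 4.42 (SE 0.40) in mutant mice. Its mitochondrial neighbour Acot2 changed by 4.24 (SE 0.40) and 3.61 (SE 0.36), and the sum of Acot1 and Acot2 by 4.42 (SE 0.39) and 4.21 (SE 0.38).

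Acot4, the peroxisomal succinyl-CoA thioesterase, changed by 2.53 (SE 0.23) in wild-type and 1.92 (SE 0.22) in mutant mice on the log2 scale. Acot8, a peroxisomal enzyme of broad chain-length range whose sequence is shared with no other gene, had the smallest rise of the 8, at 0.99 (SE 0.11) and 1.28 (SE 0.11). Its groups were tight, with a coefficient of variation of 7.45% in fasted wild-type mice, and every fasted mouse (at least 21.7 CPM) lay above every fed one (at most 15.5 CPM).

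Cyp4a12a and Cyp4a12b stood apart from the other 8. Cyp4a12a had values of 63.9, 83.7 and 125 CPM (lowest, median, highest) in fed and 44.4, 55.8 and 77.5 CPM in fasted wild-type mice, and the groups overlapped. It fell by 0.56 on the log2 scale (SE 0.21, adjusted p = 0.0466 by edgeR), beside 17.5% of genes called lower in wild-type mice. The call was lost under 12 of 23 other settings, among them 7 omissions of a single mouse, and its adjusted p ranged from 0.0228 to 0.144. In mutant mice the change was 0.00 (95% interval -0.44 to 0.43), no member was called lower, and 17.7% of all genes were. The difference of this response between genotypes was 0.55 (95% interval -0.06 to 1.17, adjusted p = 0.321). Cyp4a12b changed by -0.31 (95% interval -0.87 to 0.25) in wild-type and 0.48 (95% interval -0.07 to 1.03) in mutant mice, neither called. Of 12 other genes listed as male-biased in liver, none was called higher on fasting and 9 were called lower in wild-type and 5 in mutant mice. Of 16 listed female-biased genes 8 could be tested, with 2 higher and 0 lower in wild-type and 2 and 2 in mutant mice. Over all genes 14.5% were called higher on fasting in wild-type and 15.2% in mutant mice.

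**Figure D2:**
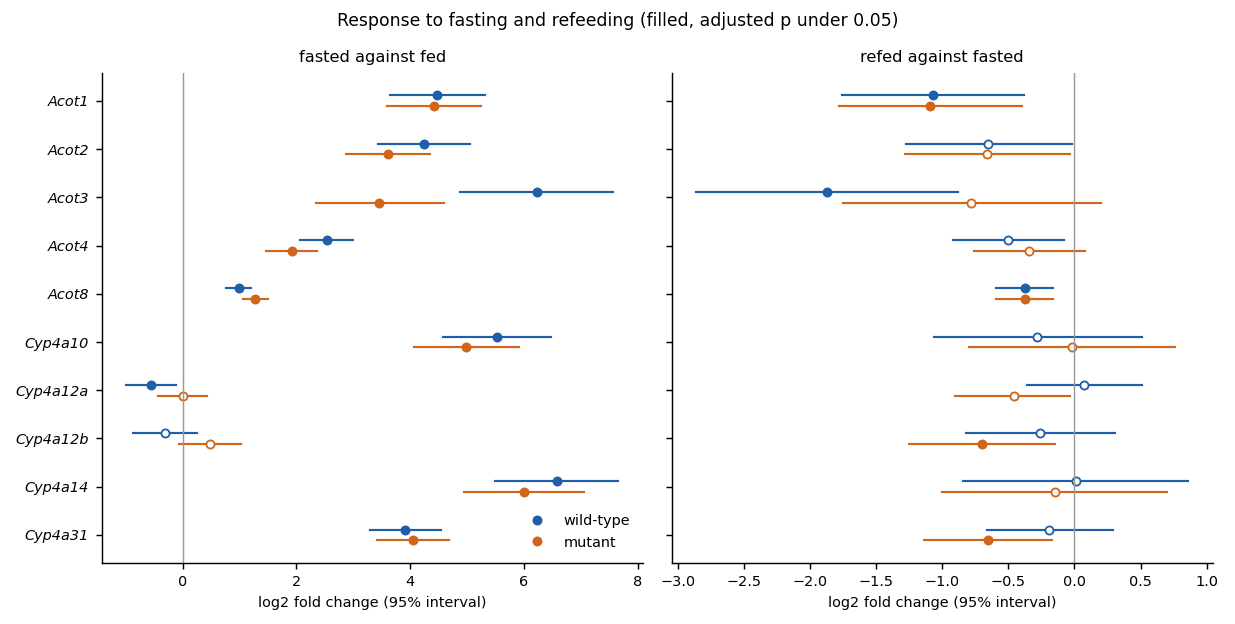
Log2 fold change with 95% interval of each gene for fasted against fed mice (left) and refed against fasted mice (right), in wild-type and mutant mice, 6 mice per group; filled points have an adjusted p under 0.05. The 8 rises on fasting run from 0.99 to 6.58 in wild-type mice, while most changes on refeeding lie within 1 log2 unit of 0.

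After 6 h of refeeding Cyp4a10 and Cyp4a14 were near their fasted levels, and the thioesterases lay between the fasted and the fed level. Against fed mice, 8 of the 10 members were still higher in refed mice of each genotype, beside 13.2% of all genes in wild-type and 13% in mutant mice, and none was lower, beside 14.3% and 13.1%. In wild-type mice 8 members did not overlap between refed and fed mice (14% of all genes in either direction), and in mutant mice 7 did not (9.11%). The exception was Acot3, where mouse RF6_MT_898 at 5.71 CPM lay below 3 fed mutant mice. Compared with fasted mice, no member was higher after refeeding, beside 16.5% of all genes in wild-type and 17.1% in mutant mice. Of the 10, 3 were lower in wild-type mice, beside 13.7% of all genes, and 4 in mutant mice, beside 14.2%. The groups did not overlap for 3 members in wild-type mice (Acot1, Acot3 and Acot8), beside 16.9% of all genes in either direction, and for 1 in mutant mice (Cyp4a12b), beside 11.9%.

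In wild-type mice Cyp4a14 had 4469 ± 452 CPM when fasted and 4507 ± 1236 CPM when refed (SD, n = 6), a log2 difference of 0.01 (95% interval -0.84 to 0.86). In mutant mice the difference was -0.15 (95% interval -1.0 to 0.70). For Cyp4a10 it was -0.28 (95% interval -1.06 to 0.51) in wild-type and -0.02 (95% interval -0.80 to 0.76) in mutant mice. Of the rise in mean CPM on fasting, 101% was left in refed wild-type mice for Cyp4a14 and 82.2% for Cyp4a10. Cyp4a31 fell by 0.65 (SE 0.24, adjusted p = 0.0332 by edgeR) in mutant mice, where 61.5% of the rise was left, and was not called in wild-type mice at -0.19 (95% interval -0.66 to 0.29). The mutant call was lost under 10 of 22 other settings, including the omission of mouse RF6_MT_898.

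Acot3 and Acot1 had the largest declines of the 10 members in wild-type mice. Acot3 went from 64.3, 129 and 159 CPM (lowest, median, highest) in fasted to 11.2, 36.5 and 44.7 CPM in refed wild-type mice, so that no refed mouse reached the lowest fasted one. It fell by 1.87 on the log2 scale (SE 0.49, adjusted p = 0.00364 by edgeR), leaving 26.3% of its rise. In mutant mice 54.5% was left, and the change of -0.78 (95% interval -1.75 to 0.20) was not called. Acot1 fell by 1.07 in wild-type (SE 0.34, adjusted p = 0.0163) and by 1.09 in mutant mice (SE 0.34, adjusted p = 0.0138), leaving 45.0% and 44.5% of the rise. Acot8 fell by 0.37 in each (SE 0.11, adjusted p = 0.00659 and 0.00629), leaving 54.0% and 61.3%. Acot2 (61.2% and 60.7% left) and Acot4 (64.4% and 71.9% left) were not called in either genotype by edgeR, with log2 changes between -0.66 and -0.34. Acot4 in wild-type mice passed under 7 of 23 other settings, among them DESeq2, with an adjusted p of 0.00153 to 0.139. Acot2 in mutant mice passed under 4 of 23, with one of 0.0221 to 0.314. The lowest value of each range belongs to a sum of close paralogs and not to the gene alone. These sums were Acot3 to Acot6 (log2 change -1.43) and Acot1 with Acot2 (-0.98). As a sum, the 5 thioesterases went from 342 ± 61.5 CPM in fasted to 160 ± 46.8 CPM in refed wild-type mice, and the 5 Cyp4a genes from 6676 ± 632 to 6345 ± 1560 CPM.

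Of the male-type genes, Cyp4a12b fell by 0.70 in mutant mice (SE 0.27, adjusted p = 0.0476 by edgeR), where every refed mouse (at most 24.5 CPM) lay below every fasted mouse (at least 26.5 CPM). That call was lost under 14 of 23 other settings. In wild-type mice it was not called at -0.26 (95% interval -0.82 to 0.31). For the difference between genotypes in the response to refeeding, none of the 10 members passed the test in edgeR, beside 2.06% of all genes, and none by DESeq2. None had an unadjusted p under 0.05, beside 15.5% of all genes.

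Some mice were low or high within their group for most of the 8 induced genes, while others were mixed. Mouse RF6_WT_828 had the lowest value of its group for all 8 genes, and mouse RF6_MT_898 for 7 of the 8. Mouse ALC_WT_856 had the highest for 6. How often these mice were lowest or highest over all genes was not counted, so a shift of the whole mouse cannot be told apart from one of these genes. The 8 genes are also not independent, since close pairs share reads. For Acot1, for example, mouse RF6_WT_828 had 20.8 CPM where the other refed wild-type mice had 38.3 to 83.8 CPM. These 3 mice were singled out after their values were seen. Without all 3, the number of members called on fasting was 8 in each genotype, the number lower after refeeding was 3 in wild-type and 2 in mutant mice, and the number higher in refed than in fed mice was 8 in each. Of single mice, the omission of RF6_MT_898, ONF_MT_826 or RF6_MT_814 lowered the 4 members called between refed and fasted mutant mice to 2, and that of RF6_MT_899 raised it to 6. The refed and fasted mice came from a lower and a higher run of mouse numbers in equal parts, and the difference of Acot1 between refed and fasted wild-type mice was -1.57 on the log2 CPM scale within the lower and -0.82 within the higher run. For Acot2 the values within runs were further apart, at -1.33 and -0.27.

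Between genotypes, no member was called in any feeding state. The test called 2.37% of all genes in fed mice, 13.1% when fasted and 0.0287% after refeeding. The 1821 genes called in fasted mice became 1168 without mouse ONF_MT_806. At an unadjusted p under 0.05 (edgeR) there were 2 members in fed, 3 in fasted and 1 in refed mice, beside 17.4%, 27.3% and 9.53% of all genes. DESeq2 called 1 member in fasted mice and none in fed or refed mice. Intervals show how far this reaches. In fasted mice the mutant differed from the wild-type by 0.25 for Cyp4a14 (95% interval -0.60 to 1.10 on the log2 scale), by -0.40 for Cyp4a10 (-1.18 to 0.38), by 0.24 for Acot1 (-0.44 to 0.92) and by 0.05 for Acot8 (-0.16 to 0.27). The interval of Acot8 is the narrowest of these.

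**Figure D3:**
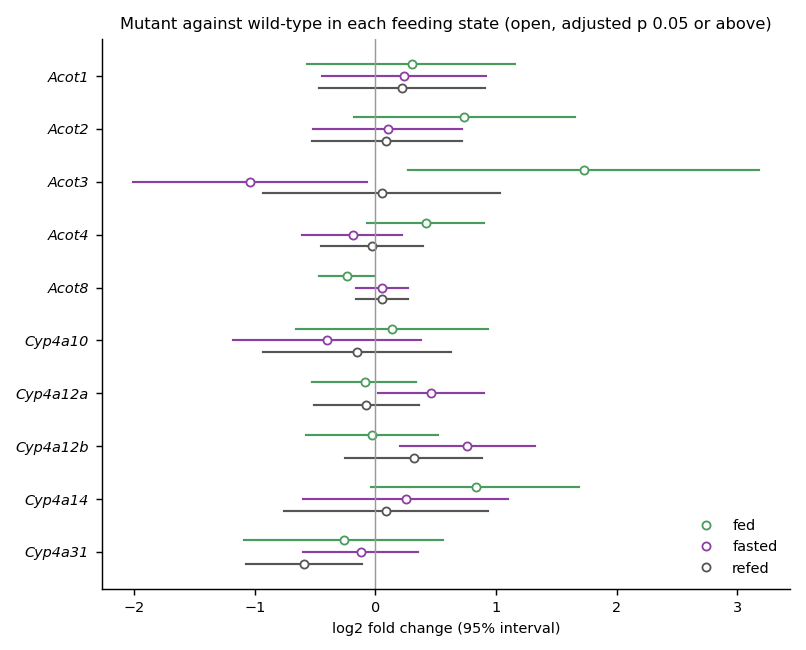
Log2 fold change with 95% interval of mutant against wild-type mice for each gene in fed, fasted and refed mice, 6 mice per group; all points are open, since none had an adjusted p under 0.05. Acot3 has the highest fed value at 1.73 and the lowest fasted value at -1.04, and Cyp4a12b in fasted mice lies at 0.76.

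Cyp4a12b was the 1 member whose genotypes did not overlap in fasted mice, beside 5.04% of all genes. Fasted mutant mice had values from 26.5 to 35.3 CPM and fasted wild-type mice from 10 to 25.2 CPM, and the log2 fold change was 0.76 (SE 0.27, adjusted p = 0.0629 by edgeR, unadjusted p = 0.00919). It was 0.87 within the lower and 0.79 within the higher run of mouse numbers. The adjusted p passed under 0.05 in 7 of 23 other settings, among them DESeq2, the likelihood ratio test and limma-voom, and ranged from 0.0202 to 0.140. The twin gene Cyp4a12a was at 0.46 (SE 0.21, adjusted p = 0.158), and the sum of both, to which the division of shared reads does not matter, at 0.54 (SE 0.21, adjusted p = 0.086). The share of Cyp4a12a in that sum was 76.7% ± 2.78 in fasted wild-type and 72.0% ± 3.57 in fasted mutant mice, a difference of -4.71 percentage points (exact permutation p = 0.0238, two-sided, adjusted p = 0.107 over 27 tests of such shares). None of the 27 share tests passed adjustment. The lowest adjusted p was 0.0584, for the share of Acot1 in Acot1 plus Acot2, which in wild-type mice was 76.3% when fasted and 71.0% when refed (exact permutation p = 0.00216, two-sided).

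Acot3 had the largest difference between genotypes in the fitted response to fasting. In fasted mutant mice it had values of 34.6, 53.0 and 104 CPM (lowest, median, highest), against 64.3, 129 and 159 CPM in fasted wild-type mice, a log2 difference of -1.04 (SE 0.47, adjusted p = 0.149 by edgeR). It was -1.04 within the lower and -1.19 within the higher run of mouse numbers. In fed mice the difference was in the other direction, at 1.73 (SE 0.71, adjusted p = 0.189). The rise on fasting was 6.23 in wild-type and 3.46 (SE 0.55) in mutant mice, a difference of -2.77 (95% interval -4.51 to -1.02, adjusted p = 0.0584 by edgeR), where 4.35% of all genes passed the threshold and no member did (1 by DESeq2). At an unadjusted p under 0.05 there were 2 of the 10 members and 19.1% of all genes. It passed under 9 of 34 other settings, with an adjusted p of 0.0167 by DESeq2 and 0.0228 by the likelihood ratio test.

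In fed mutant mice several members differed between lower and higher mouse numbers. Fed wild-type mice were ALC_WT_847 to ALC_WT_850, ALC_WT_856 and ALC_WT_860, and fed mutant mice ALC_MT_857 to ALC_MT_859, ALC_MT_866, ALC_MT_868 and ALC_MT_869. Acot3 was at 1.17 to 1.29 CPM in the first 3 of these mutant mice and at 7.79 to 10 CPM in the last 3, with wild-type mice at 0.408 to 4.09 CPM. Cyp4a14 was at 17.5 to 64.1 CPM in the first and 122 to 137 CPM in the last 3 mutant mice, and Cyp4a10 at 18.5 to 40.8 and 44.3 to 87.1 CPM. Acot1 was at 3.43 to 3.94 and 7.53 to 12.4 CPM, Acot2 at 1.34 to 3.33 and 3.66 to 4.74 CPM, and Acot4 at 5.47 to 6.24 and 9.48 to 9.72 CPM. In these 6 genes the last 3 fed mutant mice all lay above the first 3, which held for 13.2% of all genes (24.2% did not overlap in either direction), whereas the values overlapped in Acot8, Cyp4a12a, Cyp4a12b and Cyp4a31. The 6 genes are not independent of each other, since close pairs share reads.

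Only the run of numbers from ALC_WT_856 to ALC_WT_860 holds both genotypes, with 2 wild-type and 3 mutant mice. Within them the mean of the mutant mice was below that of the wild-type mice, at -1.21 on the log2 CPM scale for Acot3, -1.26 for Cyp4a14, -1.44 for Cyp4a10 and -1.06 for Acot1, whereas over all fed mice the fitted difference was 1.73, 0.83, 0.14 and 0.30. For Acot2 and Acot4 it was -0.01 and -0.16 within the run. With these as the only fed mice in the fit, the rise of Acot3 on fasting was 5.29 in wild-type and 5.57 in mutant mice, and the difference of the responses 0.27 (adjusted p = 0.961 by edgeR) in place of -2.77. Without the single mouse ALC_WT_856, in turn, that difference was -3.24 (adjusted p = 0.0423), and Cyp4a14 passed the threshold between fed genotypes at a log2 fold change of 1.64 (adjusted p = 0.0172 by edgeR), from 0.83 (SE 0.42, adjusted p = 0.306) with all mice. In the other fed mice genotype and mouse number cannot be told apart.

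**Figure D4:**
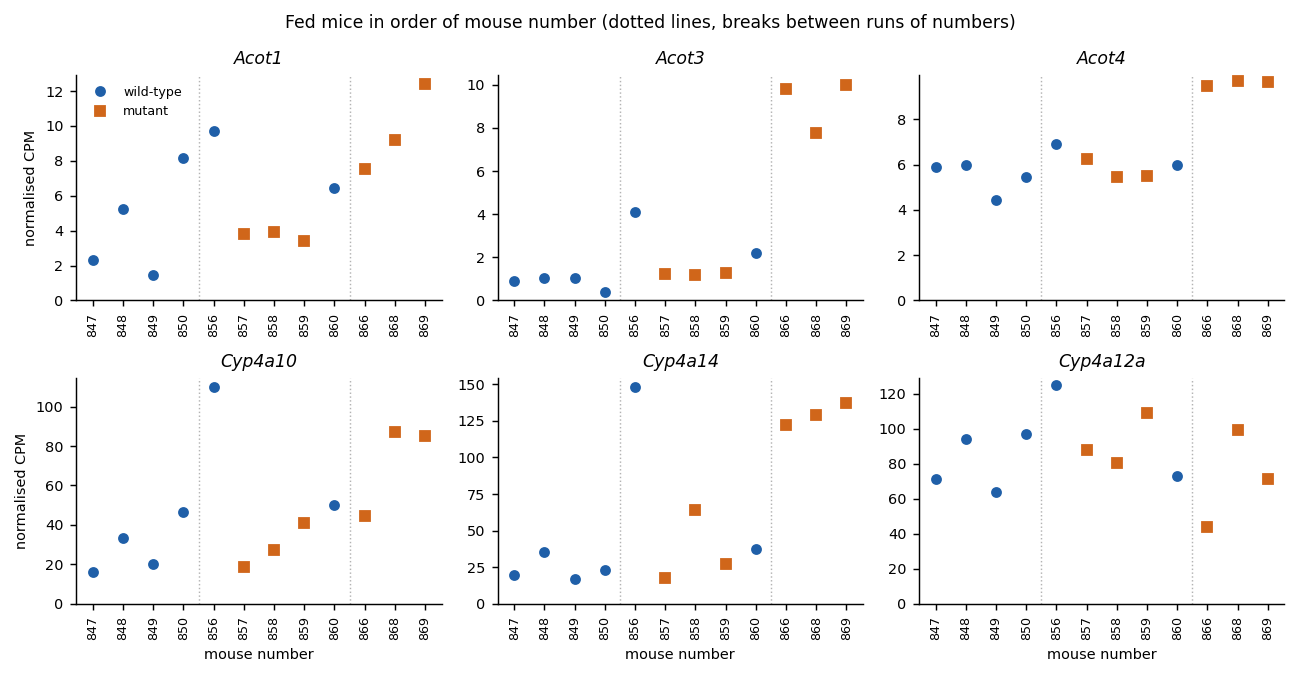
Normalised CPM (linear axes from 0) of 6 members in the 12 fed mice, in order of mouse number, with wild-type mice as circles and mutant mice as squares. For Acot1, Acot3, Acot4, Cyp4a10 and Cyp4a14 the 3 mutant mice of highest number lie above the other 3 mutant mice, and ALC_WT_856 is the highest wild-type mouse for all 6 members.

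Of 11 other thioesterase genes, 8 could be tested, and on fasting 1 rose and 1 fell in wild-type mice and 2 rose and 2 fell in mutant mice, beside the 14.5% of all genes higher and 17.5% lower in wild-type and 15.2% and 17.7% in mutant mice. Acot12, which hydrolyses acetyl-CoA in the cytosol, rose by 1.31 (SE 0.088, adjusted p = 3.7e-14) in wild-type and 1.19 (SE 0.088) in mutant mice, from between 90.8 and 118 CPM to between 236 and 268 CPM in wild-type mice, and fell by 0.57 on refeeding. Acot11, a thioesterase with a lipid-binding START domain, fell on fasting by 1.71 (SE 0.32) and 1.94 (SE 0.34). Them4 rose in mutant mice alone, by 0.63 (SE 0.10), with -0.05 in wild-type mice. The difference between the responses passed the test at 0.68 (SE 0.15, adjusted p = 0.00594 by edgeR). It draws on the fed mice, in most of which genotype and mouse number cannot be told apart. The difference between the responses of Them4 to refeeding, which compares only fasted and refed mice, passed at -0.58 (SE 0.14, adjusted p = 0.0275 by edgeR). Between fasted genotypes Them4 was higher in mutant mice, by 0.48 (SE 0.10, adjusted p = 0.00168 by edgeR). Acot7 was lower in fasted than in fed mutant mice, by 0.41, while Acot6, Acot9, Acot13 and Baat, the enzyme that conjugates bile acids, were not called on fasting in either genotype.

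Of 14 other Cyp4 genes, 10 could be tested, with 3 higher and 1 lower on fasting in wild-type and 2 and 2 in mutant mice. Over all genes 14.5% were higher and 17.5% lower in wild-type and 15.2% and 17.7% in mutant mice. Cyp4a32, next to Cyp4a31 in the array, rose by 1.92 (SE 0.25) and 2.42 (SE 0.26), and Cyp4f17 by 0.89 (SE 0.17) and 0.77 (SE 0.16). Cyp4f14, a leukotriene B4 hydroxylase, fell by 1.05 (SE 0.12) and 1.35 (SE 0.12), and rose again on refeeding by 0.82 and 0.78. Cyp4f15 rose by 0.49 in wild-type mice and was at 0.14 in mutant mice, with a difference of -0.36 between the responses that did not pass (adjusted p = 0.209). Cyp4v3 was lower in mutant than in wild-type fasted mice, by 0.53 on the log2 scale (SE 0.16, adjusted p = 0.0224), and was called lower on fasting in mutant mice only, at -0.46 and -0.10, where the difference was not called (adjusted p = 0.393). Cyp4b1 was higher in fed mutant mice by 0.60 (SE 0.16, adjusted p = 0.0417), a comparison in which number and genotype cannot be told apart. Cyp4f13, Cyp4f16, Cyp4f18 and Cyp4x1 were not called on fasting in either genotype.

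All 28 listed PPARA targets of fatty acid oxidation rose in wild-type mice and 27 of 28 in mutant mice, beside 14.5% and 15.2% of all genes. Their median log2 fold changes were 1.37 and 1.22, below the 4.08 and 3.54 of the members. The ranges overlapped, however. Fgf21 of this list rose by 4.53 and 4.01, Vnn1 by 3.46 and 2.60 and Ehhadh by 3.12 and 3.19. The member Acot8 rose by 0.99 in wild-type mice, less than the list's median. Slc22a5, the carnitine importer, rose by 2.60 and 2.63, Plin2, a lipid droplet coat protein, by 1.76 and 1.23, and Cpt1a, the entry step to mitochondrial oxidation, by 1.60 and 1.34. Hadhb, a subunit of the mitochondrial trifunctional protein, rose by 1.22 and 1.08. A further list of 23 genes was drawn up for omega-oxidation downstream of the hydroxylases and for peroxisomal dicarboxylate oxidation, and also holds some mitochondrial genes. Of these, 16 rose and 1 fell in wild-type and 13 rose and 6 fell in mutant mice. Over all genes 14.5% rose and 17.5% fell in wild-type and 15.2% and 17.7% in mutant mice. Crat and Crot, which move acyl groups from coenzyme A to carnitine, rose by 2.67 and 1.67 in wild-type mice, and Ech1 and Eci2, isomerases of unsaturated acyl-CoA, by 1.2 and 1.16.

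Acyl-CoA synthetases, which make the substrate that thioesterases cleave, had no common direction. Of 15 tested, 6 rose and 5 fell in wild-type and 5 rose and 7 fell in mutant mice. The shares over all genes were 14.5% and 17.5% in wild-type and 15.2% and 17.7% in mutant mice. Slc27a1, a fatty acid transporter with synthetase activity, rose by 2.68 and 1.87, Slc27a2, its peroxisomal relative, by 1.23 and 1.08, and Acsl1 by 1.57 and 1.23, and Acsl4 fell by 1.44 and 0.73. In fasted mice 4 of the 28 PPARA targets, 6 of the 23 oxidation genes and 6 of the 15 synthetases were lower in mutant than in wild-type mice, and 0, 1 and 1 were higher, beside 6.63% of all genes lower and 6.43% higher, and 0 of 10 members in either direction. Slc27a1 was lower there by 0.87 (SE 0.22, adjusted p = 0.00754) and Plin2 by 0.39 (SE 0.11, adjusted p = 0.0172). Ppara itself ran from 131 to 204 CPM in fasted mutant and from 215 to 285 CPM in fasted wild-type mice. Genotypes did not overlap there for 5.04% of all genes. In fed mice Ppara ran from 105 to 131 CPM in mutant and from 123 to 171 CPM in wild-type mice. Its part in the levels of the members was not tested.

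The genes outside both families whose 6 group means lay nearest to those of a member, among 12576 genes with a mean of at least 1 CPM, were close for the moderate responders and distant for the strongest. Acot8 was matched to within 0.10 by Oplah (root mean square difference of centred log2 CPM over the 6 groups), 0.11 by Qpct and 0.12 by Abhd6. Acot4 was matched by an unnamed gene listed as AC133183.2 at 0.09, by Cyp2c39 at 0.18 and by G0s2, an inhibitor of the lipase ATGL, at 0.25. Ehhadh, a peroxisomal bifunctional enzyme, was nearest to Acot2 at 0.41 and to Cyp4a31 at 0.37, followed by Vnn1, which makes pantothenic acid, at 0.48 and 0.45. Next came Fgf21, a hepatic fasting hormone, at 0.49 for Acot2, and Retsat at 0.48 for Cyp4a31. The fitted changes of Ehhadh in wild-type mice were 3.12 on fasting and 0.30 on refeeding. Those of Acot2 were 4.24 and -0.65 and those of Cyp4a31 3.91 and -0.19, so the likeness does not extend to the direction on refeeding.

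For Acot1 the nearest genes were Fgf21 and Gm15441 at 0.51 and Ehhadh at 0.66. For Acot3 they were Gm15441 at 0.79, Fgf21 at 0.82 and Vnn1 at 0.94. No gene came within 0.88 of Cyp4a14 or within 0.94 of Cyp4a10, whose nearest were Mup14, Mup10 and Mup7, and Mup7, Gm15441 and Mup1. The major urinary protein genes among these had fitted changes of -0.78 to 2.11 on fasting in wild-type mice, far from those of the hydroxylases, so the likeness is one of mean log levels alone. The matches of Cyp4a12a were the closest, with D1Ertd622e at 0.04, Loxl2 at 0.06 and Scarna10 at 0.07. Those of Cyp4a12b were Apobec3 at 0.09, Metazoa_SRP at 0.11 and Plekhm3 at 0.12. These are descriptions over 6 group means.

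PPARA binds DNA with RXR at a direct repeat of AGGTCA with 1 base between the repeats (DR1). RefSeq promoter windows, from 250 bases before to 50 after the start (GRCm38.p6), were at hand for the 5 thioesterases and not for the Cyp4a members. On either strand, the best match had 10 of the 12 repeat letters in Acot4, 9 in Acot2 and Acot3, 8 in Acot1 and 7 in Acot8. Of all 32851 promoter windows, 3.86% held a match with at least 10 letters and 24.6% one with at least 9, so that the match in Acot4 is the least common. It is shown with the repeat in capitals, reading on the gene's strand. The first capital on that strand lies at position -13 from the start, and the AGGTCA repeat itself reads on the opposite strand.
Acot4, chr12:84038354-84038390, plus strand: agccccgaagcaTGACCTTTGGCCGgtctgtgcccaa
A match of letters is a description and not a binding site.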

How the data were processed

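The authors deposited estimated counts per gene and mouse, not normalised, from 50-base single reads of stranded total RNA. The labels name Cuffdiff, SAMtools, featureCounts and edgeR and the build mm9, and versions are not given in the sources used here. The genes' loci in the table, however, overlapped their GRCm38 positions for 99.7% of the 36341 identifiers found in GENCODE M21, which was used for coordinates and exon lengths. Of the counts above 0, 3.64% were not whole, and all were rounded. A second table of fitted group means was not used. Genes were kept by filterByExpr, scaled by TMM, and fitted in R 4.3.3 with edgeR 4.0.16 (glmQLFit and glmQLFTest, robust, 1 coefficient per group, 36 libraries). Two-sided p-values were adjusted by Benjamini-Hochberg over 13945 genes, with a threshold of 0.05. SE is the absolute log2 fold change divided by the square root of F. Shares of a paralog in a pair were compared by exact permutation. Fits were tested on simulated counts. DESeq2 1.42.0, the likelihood ratio test, limma 3.58.1 (voom), 2 scalings, 2 filters, fewer libraries, mouse number as covariate, summed paralogs and single-mouse omissions were alternatives. No 2 mice of a group had counts within sampling noise, with a chi-square per degree of freedom of at least 7 over 90 pairs. The labels do not say that mice of a group differ in litter or day. Second index barcodes in the labels nearly followed feeding state. P-values therefore measure the spread between these mice.

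The members, gene lists and tests were chosen with earlier results of these data known. The genes named are the 10 members, the tested genes of the other Acot and other Cyp4 lists, and Ppara. To these come at most 4 of each other list by adjusted p on fasting in wild-type mice, and 3 nearest patterns per member.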

Additional observations from a re-analysis of the deposited data

Results flagged for a closer look

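In each of 60 groups of 6 mice (10 genes in 6 groups), the gap of the highest or lowest mouse to its neighbour was divided by the range of log2 CPM and compared with Dixon's 95% critical value. Chance passes about 1 in 20 such groups, and 3 of the 60 passed here. Acot8 in mouse ALC_WT_849 was at 9.21 CPM, below the other 5 fed wild-type mice (gap over range 0.68). Acot8 in mouse ONF_WT_920 was at 30.1 CPM, above its group (0.64). Cyp4a14 in mouse ALC_WT_856 was at 148 CPM, above its group (0.64), and the comparison of fed genotypes without that mouse is given in the report.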

How the results depend on the processing

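On fasting, 6 to 8 members were called in mutant mice and 7 to 9 in wild-type mice under the settings run, the ninth being Cyp4a12a, and refed against fed mice 6 to 9 in each. The lowest counts came with at least 10 counts in every library, which leaves out Acot3 and Cyp4a31. With the 5 fed mice from ALC_WT_856 to ALC_WT_860 only, Acot8 lost its call in refed against fed wild-type mice (adjusted p = 0.0841 by edgeR). Refed against fasted wild-type mice, the 3 members called became 5 by limma-voom and 5 with close paralogs summed, where a sum counts for each of its genes, and were 3 to 4 without single mice. In mutant mice the 4 called became 2 with library size scaling, 2 with no filter and 2 without mice RF6_WT_828, RF6_MT_898 and ALC_WT_856, and were 2 to 6 without single mice (2 without RF6_MT_898, ONF_MT_826 or RF6_MT_814, and 6 without RF6_MT_899). Between fasted genotypes, 0 became 1 by DESeq2, by the likelihood ratio test, with at least 10 counts in every library, with only the groups compared and with mouse number series as covariate, and 2 by limma-voom (Cyp4a12b in each, and Acot3), and 0 to 1 without single mice. Between fed genotypes, 0 became 1 (Cyp4a14) without mouse ALC_WT_856, alone or with RF6_WT_828 and RF6_MT_898. For the genotype difference of the fasting response, 0 became 1 (Acot3) by DESeq2, by the likelihood ratio test, with only the groups compared and without mice RF6_WT_828, RF6_MT_898 and ALC_WT_856, and 0 to 1 without single mice, and stayed 0 with the 5 fed mice from ALC_WT_856 to ALC_WT_860 only. No member was called between refed genotypes or for the refeeding response under any setting. No call of a member changed sign.

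Over all genes, the 330 called between fed genotypes became 644 by DESeq2, 516 by the likelihood ratio test, 756 with library size scaling, 207 with no filter, 30 with only the groups compared, 0 with blocks of neighbouring mouse numbers as covariate, 1 with the 5 fed mice named above, and moved both ways without single mice, down to 68 without ALC_MT_868 and up to 593 without ALC_MT_857 and more without ALC_MT_858. The 1821 between fasted genotypes became 1168 without ONF_MT_806. The 4 between refed genotypes became 25 by DESeq2, 18 by the likelihood ratio test, 12 with mouse number series as covariate and 1 without the 3 mice. For the genotype difference of the fasting response, 607 became 386 with no filter and 81 with the 5 fed mice, and for refeeding 287 became 152 with no filter, 76 without the 3 mice and as few as 124 without a single mouse (ONF_MT_806). With the 5 fed mice, the 4464 called on fasting and 3839 called refed against fed in wild-type mice became 2641 and 1942.

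Without single mice, the share of Acot1 (percentage points) differed by 3.43 to 8.80 on fasting in wild-type mice and 1.43 to 4.69 between fasted genotypes. That of Cyp4a12a differed by -3.54 to -1.71 on fasting in wild-type mice, -9.05 to -5.78 in mutant mice and -5.56 to -3.62 between fasted genotypes, and that of Cyp4a10 by 1.25 to 2.37 on fasting in wild-type mice and 0.459 to 0.980 in mutant mice. These omissions moved the unadjusted exact p across 0.05. The omission of these 3 mice and the restriction to these fed mice were chosen after seeing the data. Mouse numbers are unique, so no pairing of mice across groups was possible. Depth limits Cyp4a31 and Acot3 in fed mice, at 3 to 14 and 5 to 159 counts per mouse.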
